A study of Mus musculus with 4 samples.

Results

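The genes of protein folding, translocation and quality control in the endoplasmic reticulum (ER) were followed in mouse group 3 innate lymphoid cells (ILC3s) with and without TL1A. The set was a list of 49 genes, chosen with earlier results of these data known. They were found by name among the 24343 genes of the deposited table, and all 49 were present. Of these, 43 had enough reads to be tested, out of 9852 genes tested in all. ILC3s are lymphocytes without antigen receptors that secrete cytokines at mucosal surfaces, and TL1A is a cytokine of the TNF superfamily whose receptor is DR3 (gene Tnfrsf25). The cells came from IL23R-GFP/WT mice, which carry 1 reporter copy and 1 wild-type copy of the IL-23 receptor locus, and were sorted for CD127 and GFP and against lineage markers. One group was kept in medium (2 libraries, the controls) and the other was stimulated with TL1A (2 libraries). The genotype and the sort were shared by both groups. The sources used here do not give the dose, the time, the age of the animals or whether libraries of a group came from separate animals or cultures. The p-values therefore rest on the spread between libraries, and that spread may be technical.

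Secreted and membrane proteins enter the ER through the SEC61 channel, lose their signal peptide, receive N-linked sugars and are folded by chaperones and disulfide isomerases. When unfolded proteins accumulate, 3 membrane sensors, IRE1 (Ern1), ATF6 and PERK, raise the output of chaperone, transport and degradation genes, a programme called the unfolded protein response. Lymphocytes that start to secrete in bulk, such as plasma cells, are known for a large ER. In bulk RNA, more cells expressing a gene and more RNA per cell cannot be told apart.

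Some of the promoters hold a sequence element through which ATF6 and XBP1 are known to act, and these matches are shown first. The ER stress response element (ERSE) was searched as CCAAT, 9 bases of any kind and CCACG, and the related ERSE-II as ATTGG, 1 base and CCACG, on both strands of the RefSeq promoter table (GRCm38.p6, 250 bases before to 50 after each start). Of the 49 genes, 41 had a promoter in that table. ERSE was found in 8 of these 41 (19.5%), against 37 of 27025 genes in the whole table (0.137%), and ERSE-II in 2 of 41 (4.88%), against 12 of 27025 (0.0444%). The element was first described in promoters of this gene family, so its presence is not independent of the list. The ERSE and ERSE-II matches are given below with up to 10 bases on each side, 5′ to 3′ on the strand of the gene, with the fixed letters of the element in capitals (CGTGG and ATTGG mark the reverse orientation).

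Hspa5, chr2:34772015-34772053, plus strand: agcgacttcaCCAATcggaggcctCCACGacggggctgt
Hsp90b1, chr10:86705628-86705666, minus strand: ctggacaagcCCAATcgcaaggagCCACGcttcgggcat
Hsp90b1, chr10:86705523-86705561, minus strand: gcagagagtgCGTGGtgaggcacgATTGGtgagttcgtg
Calr, chr8:84847065-84847103, minus strand: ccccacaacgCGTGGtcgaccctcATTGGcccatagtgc
Creld2, chr15:88819510-88819548, plus strand: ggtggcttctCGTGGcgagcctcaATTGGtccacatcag
Dnajc3, chr14:118937817-118937855, plus strand: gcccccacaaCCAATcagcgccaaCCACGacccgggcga
Pdia6, chr12:17266481-17266519, plus strand: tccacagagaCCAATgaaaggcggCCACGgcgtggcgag
Canx, chr11:50325790-50325828, minus strand: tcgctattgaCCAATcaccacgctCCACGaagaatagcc
Syvn1, chr19:6046522-6046560, plus strand: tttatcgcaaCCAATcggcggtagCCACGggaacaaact
Herpud1 (ERSE-II), chr8:94386367-94386397, plus strand: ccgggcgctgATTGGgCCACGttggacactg
Dnajb11 (ERSE-II), chr16:22857852-22857862, plus strand: ATTGGcCCACG

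Hsp90b1 held 2 matches in opposite orientations, and the other 7 genes with ERSE held 1 each. To show how the elements sit among other CCAAT boxes, the 250 bases before the start of the genes for BiP (Hspa5), GRP94 (Hsp90b1) and the membrane protein HERP (Herpud1) are printed whole. In Herpud1 the capitals also mark a match to TGATGNAA on the reverse strand, the core of the composite site through which ATF4 is known to act.

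Hspa5, chr2:34771840-34772089, plus strand: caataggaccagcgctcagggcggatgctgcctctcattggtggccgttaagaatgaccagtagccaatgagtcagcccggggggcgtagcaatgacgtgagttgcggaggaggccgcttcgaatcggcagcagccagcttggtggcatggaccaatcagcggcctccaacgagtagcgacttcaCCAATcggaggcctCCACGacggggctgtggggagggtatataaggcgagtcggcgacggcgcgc
Hsp90b1, chr10:86705445-86705694, minus strand: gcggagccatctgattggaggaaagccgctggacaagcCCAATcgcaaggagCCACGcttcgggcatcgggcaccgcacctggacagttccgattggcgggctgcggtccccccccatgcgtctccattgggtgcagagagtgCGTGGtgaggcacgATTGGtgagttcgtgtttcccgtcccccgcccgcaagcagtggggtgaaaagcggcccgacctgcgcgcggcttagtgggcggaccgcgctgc
Herpud1, chr8:94386179-94386428, plus strand: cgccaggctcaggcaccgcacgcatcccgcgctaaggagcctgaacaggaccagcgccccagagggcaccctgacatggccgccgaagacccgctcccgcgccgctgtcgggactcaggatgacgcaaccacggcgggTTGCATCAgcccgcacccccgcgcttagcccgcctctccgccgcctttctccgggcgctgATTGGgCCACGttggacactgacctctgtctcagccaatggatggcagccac

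The ATF4 core TGATGNAA was found in 3 of 41 promoters (7.32%), against 4.51% of all genes. Besides Herpud1 they were Chac1 and Trib3, genes known to respond to ATF4, and in all 3 the match lay on the reverse strand. The element TGACGTGG, through which XBP1 is known to act, was in 0 of 41 promoters, against 0.714% of all genes. The single boxes that also make up ERSE were common: CCAAT was in 30 of 41 promoters (73.2%, against 41.1% of all genes) and CCACG in 32 of 41 (78%, against 35.5%), ERSE matches included. Among the 7757 tested genes with a promoter, the shares were 42% for CCAAT and 51% for CCACG. Among the 35 tested members with a promoter they were 74.3% and 82.9%. The longer forms TGATGCAAT and TGATGAAAC were each in 0 of 41 promoters, against 0.222% and 0.229%. A match describes these letters only and was not tested as a binding site.

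**Figure D1:**
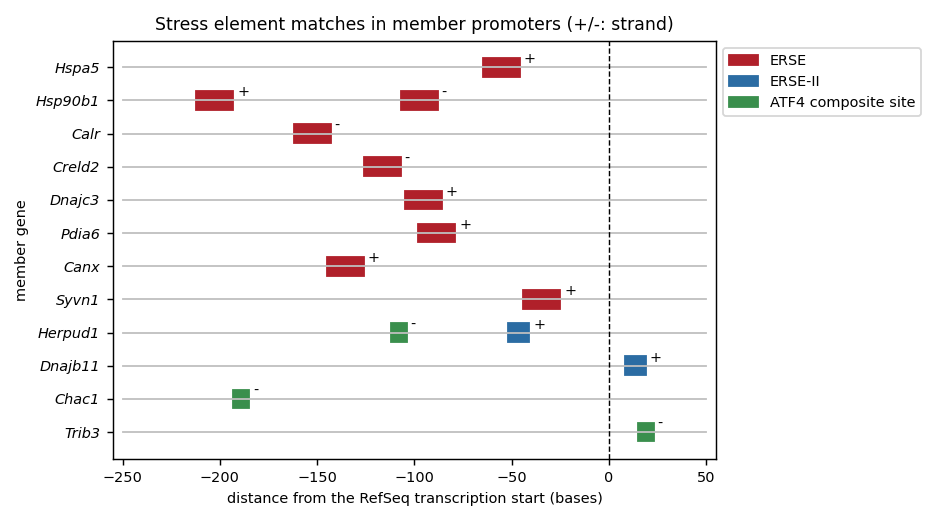
Position of each ERSE, ERSE-II and ATF4 core match in 12 member promoters, in bases from the RefSeq start (dashed line), with the strand of the match beside it. All ERSE matches lie before the start, and the matches of Dnajb11 and Trib3 lie after it.

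With TL1A, 33 of the 49 genes rose, 1 fell and 9 did not pass (edgeR quasi-likelihood test, Benjamini-Hochberg adjusted p under 0.05 over all 9852 genes). The other 6 had too few reads to be tested. Over all tested genes 20.6% rose and 21.7% fell. A rise of at least 2-fold was found for 23 of the 49 genes, against 8.77% of all tested genes. The median log2 fold change was 1.11 over the 43 tested genes and -0.03 over all tested genes. Since the 49 genes were chosen with earlier results of these data known, these comparisons are description only. Chac1 and Derl2 reached the low-count filter only through the TL1A libraries, so they had to be higher there to be tested at all. Together the 49 genes took 1.30% and 1.24% of the assigned reads in medium against 2.22% and 2.36% with TL1A. The summed level was 11606 ± 378 CPM (counts per 1e+06 reads, scaled by the trimmed mean of M-values, TMM; SD, n = 2) in medium against 25044 ± 785 CPM with TL1A. For such sums no test is given, since with 2 libraries a group the smallest p of an exact permutation test is 0.333.

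The libraries held 11495636 to 12605164 assigned reads. The genes behind the sort were present in both groups: Il23r went from 1001 ± 7.93 to 647.6 ± 22.2 CPM and Il7r, the gene of CD127, from 3606 ± 77.2 to 1199.7 ± 12.5 CPM. Tnfrsf25 went from 62.4 ± 7.29 to 61.8 ± 10.7 CPM. The 15 ILC3 markers summed to 13957 and 14723 CPM in medium against 16484 and 16527 CPM with TL1A, with none at 0. Markers of plasma cells, the secretory cells with the most developed ER, were mixed. Jchain had 0 and 5 reads in medium against 0 and 1 with TL1A, Tnfrsf17 had at most 1 read in any library, Mzb1 had none, and Ighm has no row. The summed level of that 8-gene list was 116 and 122 CPM in medium against 107 and 120 CPM with TL1A. Within it Sdc1 fell from 112 ± 5.54 to 5.94 ± 0.504 CPM, while Irf4 rose from 3.004 ± 1.49 to 84.7 ± 9.13 CPM and Prdm1 from 3.71 ± 0.0513 to 21.5 ± 0.706 CPM. Derl3 also passed as higher, with 3 and 2 reads in medium, but reached the low-count filter only through the TL1A libraries. Of 8 B cell markers, Ms4a1, Pax5 and Fcer2a were among those with 0 reads in every library, and the summed level went from 158 and 169 to 851 and 778 CPM, carried by Blk and Cd79b. The myeloid list of 11 genes, with Itgam and S100a9 at 0, went from 1650.0 and 1825 to 747 and 731 CPM. Almost all of that sum was Fcer1g, with 1560 and 1720 CPM in medium against 703 and 678 CPM with TL1A. The 7 genes of ILC1 and NK cells, with Eomes at 0, went from 28.6 and 25.7 to 458 and 431 CPM, almost all of it Ncr1. The 6 ILC2 genes went from 64.3 and 74.4 to 164 and 150.1 CPM, where Klrg1 rose and Il1rl1 and Il17rb fell. The 9 T cell genes (Cd8a at 0) summed to 142 and 125 CPM in medium against 106 and 122 CPM with TL1A. Almost all of it was Lat, with 138 and 116 CPM in medium against 99.9 and 116 CPM with TL1A. The 8 epithelial and stromal genes (Col1a1 at 0) summed to 14.1 and 8.09 CPM for medium against 4.93 and 5.001 CPM for TL1A. Cd8a, Itgam, S100a9 and Eomes have 2 rows each and Fcer2a has 7. Their reads that fall in several rows went uncounted, so 0 reads does not measure the level of these genes. The part of these markers in the results was not tested.

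**Figure D2:**
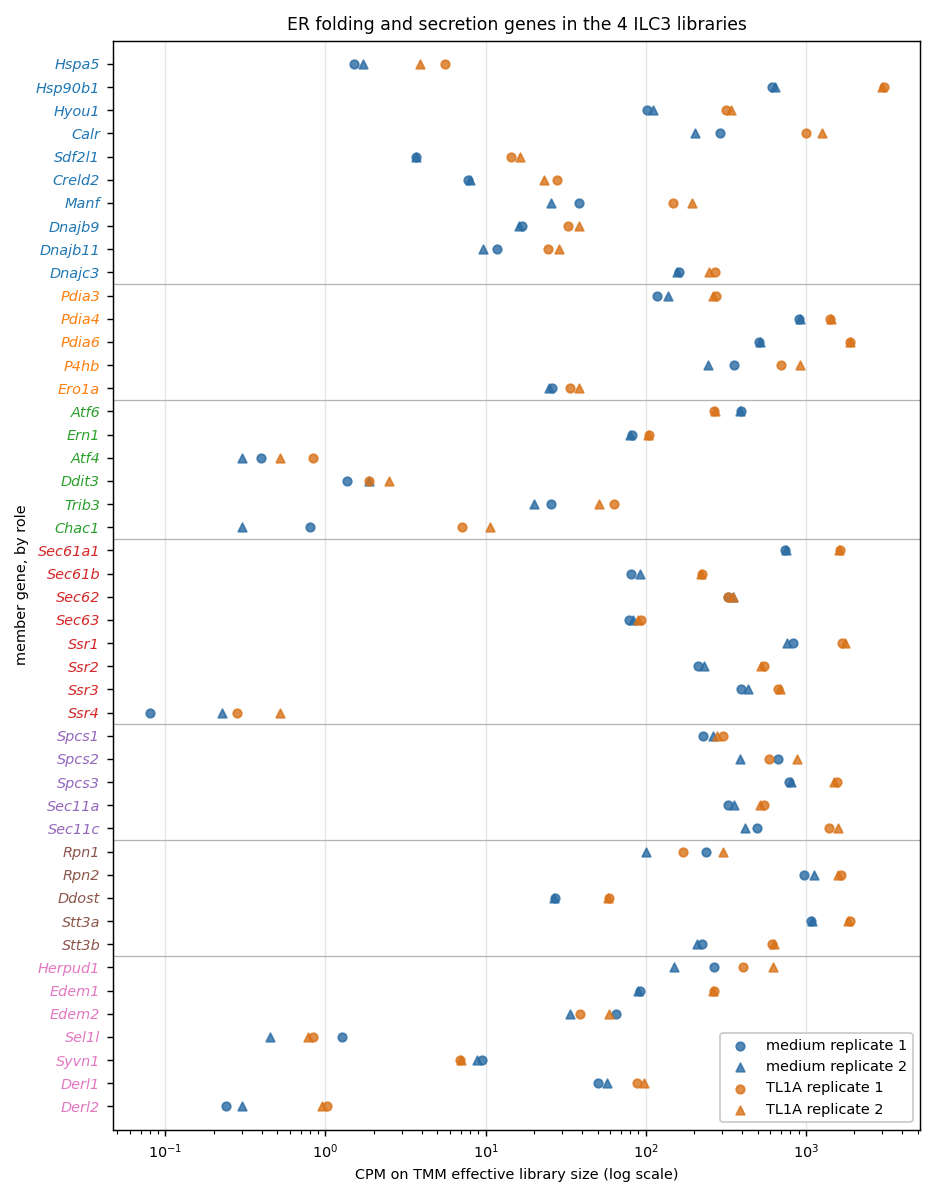
Level of each of the 46 member genes with any read in each library, in CPM on TMM effective library size (log axis), grouped by role with label colours marking the roles. Blue and orange points of chaperones and isomerases such as Hsp90b1 and Pdia6 stand apart, whereas those of Sec62, Spcs2, Rpn1 and Edem2 overlap.

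The chaperones of the ER lumen and their helpers included 10 genes that rose of 11 listed. The other, Canx, could not be measured, and the median over the 10 was 1.67 on the log2 scale. Hsp90b1 encodes GRP94, the HSP90 form of the ER. It had 614 and 642 CPM in medium against 3063 and 2977 CPM with TL1A, a 4.81-fold rise (log2 fold change 2.27, SE 0.06, edgeR adjusted p = 3.69e-07). The libraries within each group lay close together and the groups did not overlap. Calr encodes calreticulin, a lectin chaperone that holds newly glycosylated proteins. Its level was 293 and 203 CPM in medium against 1003 and 1263 CPM with TL1A, a 4.58-fold rise (log2 fold change 2.19, SE 0.18). Manf, which encodes a small secreted protein that binds BiP, had the largest fold change of the chaperones. It had 38.1 and 25.6 CPM in medium against 148 and 196 CPM with TL1A (5.40-fold, log2 fold change 2.43, SE 0.21). For Calr and Manf the spread within a group was wider than for Hsp90b1, with medium replicate 1 and TL1A replicate 2 the higher library of their group.

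Sdf2l1, whose product binds BiP and its J-protein partners, had 3.66 and 3.67 CPM in medium against 14.3 and 16.4 CPM with TL1A (log2 fold change 2.06, SE 0.22). Creld2, an ER-resident protein induced by ER stress, had 7.72 and 7.94 CPM in medium against 27.996 and 23.3 CPM with TL1A (log2 fold change 1.71, SE 0.18). Both were scarce in counted reads but separated fully between the groups. Hyou1, a nucleotide exchange factor for BiP, rose from 107 ± 7.23 to 329 ± 18.7 CPM (log2 fold change 1.63, SE 0.09).

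The J-proteins, which direct BiP to its substrates, rose less. Dnajb11 rose from 10.8 ± 1.56 to 26.5 ± 2.88 CPM (log2 fold change 1.30, SE 0.19). All but 1 of its counted reads lay in 1 of its 3 rows. Reads shared between rows went uncounted, so these CPM do not stand for the level of Dnajb11. Dnajb9 rose from 16.6 ± 0.444 to 35.7 ± 3.91 CPM (log2 fold change 1.11, SE 0.15). Dnajc3, known as P58IPK, an inhibitor of the kinase PERK that also works as a J-protein, rose from 158.5 ± 3.59 to 261 ± 15.2 CPM (log2 fold change 0.72, SE 0.08). Its promoter holds an ERSE in the same orientation as that of Pdia6, shown above, whose log2 fold change was 1.88.

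Hspa5 encodes BiP, the central HSP70 chaperone of the ER. Its counted reads were 19 and 23 in medium against 60 and 45 with TL1A, all of them in 1 of its 2 deposited transcript rows. The fitted log2 fold change was 1.54 (SE 0.36, edgeR adjusted p = 0.0123). The call was lost without TL1A replicate 1 (log2 fold change 1.26, adjusted p = 0.0903). Reads in stretches shared by several transcript rows were not counted, so these few reads do not stand for the level of BiP mRNA. Canx, the gene of the membrane lectin calnexin, had 3 rows and 0 reads in every library, which limits only reads particular to 1 row (0.238 to 0.261 CPM, 3 counts of the assigned reads of a library).

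The disulfide oxidoreductases form and exchange the bonds between cysteines, and each of the 5 rose (median 1.07 on the log2 scale). Pdia6 had 513 and 516 CPM in medium against 1899 and 1877 CPM with TL1A, a 3.67-fold rise (log2 fold change 1.88, SE 0.06, edgeR adjusted p = 6.89e-07). The libraries of a group lay close together, and the groups did not overlap. P4hb, the gene of the founding member PDI, had 357 and 245 CPM in medium against 702 and 917 CPM with TL1A (log2 fold change 1.43, SE 0.19). Pdia3, which pairs with calnexin and calreticulin, rose from 128 ± 14.015 to 268 ± 8.03 CPM (log2 fold change 1.07, SE 0.10). Pdia4 rose by 0.66 (SE 0.06) from 908.4 ± 7.33 CPM. The isomerases moved by unequal amounts: the ratio of Pdia6 to Pdia4 reads, which does not depend on scaling, was 0.568 and 0.564 in medium against 1.33 and 1.30 with TL1A. Ero1l (named Ero1a in the reference), the oxidase that recharges PDI, had 26.0 and 24.9 CPM in medium against 33.9 and 38.5 CPM with TL1A (log2 fold change 0.51, SE 0.14, adjusted p = 0.0235). That call was lost without medium replicate 1 (adjusted p = 0.0560), medium replicate 2 (0.0637) or TL1A replicate 2 (0.130), and with the replicate number as a block (0.0541).

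The sensors and transcription factors of the unfolded protein response did not move as a block: 3 of 7 rose, 1 fell, 1 did not pass and 2 could not be tested. Atf6, whose product is cut in the Golgi to release a transcription factor, was the only gene of the 49 to fall. It had 395 and 387 CPM in medium against 267 and 270.0 CPM with TL1A (log2 fold change -0.54, SE 0.07, edgeR adjusted p = 0.000589), with no overlap between groups. Ern1, the gene of the kinase and nuclease IRE1, had 82.7 and 79.8 CPM in medium against 105 and 103 CPM with TL1A (log2 fold change 0.36, SE 0.09, adjusted p = 0.0179). The Ern1 call was lost without either TL1A library (adjusted p = 0.0919 without replicate 1 and 0.0648 without replicate 2) and with the replicate block (0.0523). The ratio of Ern1 to Atf6 reads was 0.209 and 0.206 in medium against 0.396 and 0.382 with TL1A.

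Xbp1, whose mRNA is spliced by IRE1 to give an active transcription factor, has 2 deposited rows and had 0 reads in every library. Reads that fall in both rows were not counted, so its level and its splicing were not measured here. Atf4, translated when PERK or a related kinase halts general translation, also has 2 rows, with 5 and 4 reads for medium against 9 and 6 for TL1A. Ddit3 encodes CHOP, a factor of prolonged ER stress. Counted reads were 17 and 25 for medium against 20 and 29 for TL1A, in 1 of its 2 rows (log2 fold change 0.43, SE 0.43, adjusted p = 0.453), and the groups overlapped.

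Trib3 and Chac1 are known to respond to ATF4 and CHOP. Trib3, which encodes a pseudokinase, had 25.6 and 20.1 CPM in medium against 63.6 and 51.2 CPM with TL1A (log2 fold change 1.33, SE 0.17, adjusted p = 0.00079). Chac1, which encodes an enzyme that degrades glutathione, had 10 and 4 reads in medium against 77 and 123 with TL1A. Its log2 fold change of 4.01 (SE 0.47, adjusted p = 0.000439) was the largest of the set, and was 4.84 without medium replicate 1. As stated above, Chac1 had to be higher with TL1A to be tested. The ATF4 cores of these promoters are shown here because they are the genes of this group that rose by over 2-fold, with 10 flanking bases where the match lies before the start.

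Chac1, chr2:119351039-119351066, plus strand: ttccctgccgTTGCATCActcctgccag
Trib3, chr2:152344039-152344046, minus strand: TTACATCA

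**Figure D3:**
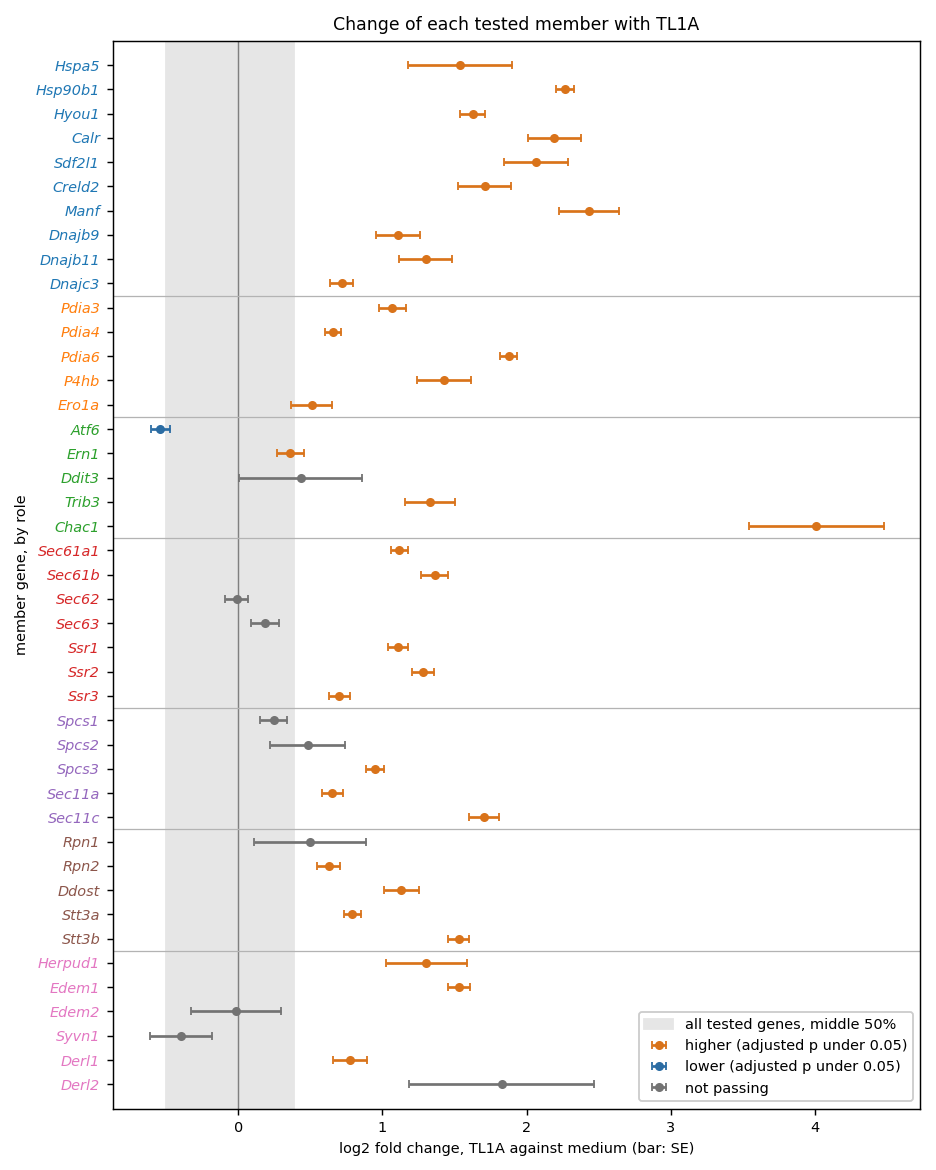
Log2 fold change of the 43 tested members, TL1A against medium, with SE from the edgeR fit, coloured by whether they passed and grouped by role (label colours). The grey band is the middle 50% of all tested genes (-0.50 to 0.39). Chac1 lies farthest to the right and Atf6 is the only member that passed as lower.

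Channel and translocon-associated genes rose together, whereas the posttranslational accessory factors did not pass: 5 of 9 genes rose and 2 did not pass, with a median of 1.11 over the 7 tested. Sec61a1, the pore subunit of the channel, had 744 and 748 CPM in medium against 1630.5 and 1604 CPM with TL1A (2.17-fold, log2 fold change 1.12, SE 0.06, edgeR adjusted p = 7.14e-06). Sec61b, a small channel subunit, had 81.5 and 91.7 CPM in medium against 223 and 222 CPM with TL1A (log2 fold change 1.36, SE 0.09). Both genes were higher in each TL1A library than in each medium library.

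Subunits of the translocon-associated protein complex, which assists insertion beside the channel, rose as well. Ssr1 rose by 1.11 (SE 0.07), Ssr2 by 1.28 (SE 0.08) and Ssr3 by 0.70 (SE 0.07) on the log2 scale. Sec62, a receptor for short and posttranslational substrates, had 327 and 353 CPM in medium against 325 and 350.2 CPM with TL1A. Its log2 fold change was -0.01 (SE 0.08, adjusted p = 0.914), or 0.01 with RLE factors, another scaling. Sec63, the J-protein that works with Sec62, had 78.1 and 83.7 CPM in medium against 93.9 and 90.1 CPM with TL1A (log2 fold change 0.19, SE 0.10, adjusted p = 0.175). The ratio of Sec61a1 to Sec62 reads was 2.27 and 2.12 in medium against 5.02 and 4.58 with TL1A, and that of Sec61a1 to Sec63 was 9.52 and 8.94 in medium against 17.4 and 17.8 with TL1A. Sec61g, with 3 rows, had 0 reads in every library, and Ssr4, with 2 rows, had 1 and 3 reads in medium against 3 and 6 with TL1A.

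Signal peptidase cuts the signal peptide from proteins entering the ER, and 3 of its 5 genes rose. Its 2 catalytic subunits, Sec11a and Sec11c, changed by unequal amounts. Sec11c had 499 and 419 CPM in medium against 1398 and 1592 CPM with TL1A, a 3.26-fold rise (log2 fold change 1.71, SE 0.10, edgeR adjusted p = 1.53e-05). Sec11a had 328 and 354 CPM in medium against 552 and 521 CPM with TL1A, a 1.57-fold rise (log2 fold change 0.65, SE 0.07). The ratio of Sec11c to Sec11a reads was 1.52 and 1.18 in medium against 2.53 and 3.06 with TL1A, so every TL1A library was above both medium libraries. Spcs3, an accessory subunit, rose from 796.5 ± 22.6 to 1534 ± 44.9 CPM (log2 fold change 0.95, SE 0.06).

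The other accessory subunits did not pass. Spcs1 had 228 and 263 CPM in medium against 303 and 279 CPM with TL1A (log2 fold change 0.24, SE 0.09, adjusted p = 0.0704), and passed without medium replicate 2 (adjusted p = 0.0103), with no low-count filter (0.0441) and with DESeq2 (0.0470). Spcs2 had 671 and 389 CPM in medium against 592 and 886 CPM with TL1A (log2 fold change 0.48, SE 0.26, adjusted p = 0.183), so its groups overlapped. It passed without medium replicate 1 (log2 fold change 0.92, adjusted p = 0.00618) and without TL1A replicate 1 (0.75, adjusted p = 0.0297), and with no low-count filter (0.49, adjusted p = 0.0247).

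Oligosaccharyltransferase moves a preassembled sugar chain onto asparagines of the entering protein, and 4 of its 5 genes in the list rose, with a median of 0.79. There are 2 alternative catalytic subunits: STT3A works beside the channel during translation, and STT3B also acts on sites that were skipped. Stt3b had 225 and 208 CPM in medium against 617 and 632 CPM with TL1A, a 2.88-fold rise (log2 fold change 1.53, SE 0.07, edgeR adjusted p = 4.53e-06). Stt3a had 1071 and 1087 CPM in medium against 1898 and 1838 CPM with TL1A, a 1.73-fold rise (log2 fold change 0.79, SE 0.06). The ratio of Stt3b to Stt3a reads was 0.210 and 0.191 in medium against 0.325 and 0.344 with TL1A. The ratios change between the groups by more than the libraries of a group differ; the levels of the 2 genes cannot be compared without their lengths.

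Among the shared subunits, Ddost had 27.1 and 26.7 CPM in medium against 59.1 and 58.5 CPM with TL1A (log2 fold change 1.13, SE 0.12). Rpn2 rose from 1055 ± 105 to 1631 ± 50.3 CPM (log2 fold change 0.63, SE 0.08). Rpn1, the gene of ribophorin I, had 237 and 101 CPM in medium against 172 and 305 CPM with TL1A (log2 fold change 0.50, SE 0.39, adjusted p = 0.343). Its libraries differed more within a group than the group means did, and it passed without medium replicate 1 (log2 fold change 1.24, adjusted p = 0.00851).

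Degradation genes, whose products return misfolded proteins to the cytosol, were mixed: 3 of 7 rose, 3 did not pass and 1 could not be tested. Edem1 encodes a mannosidase-like lectin that marks glycoproteins for removal. It had 92.4 and 90.0 CPM in medium against 265 and 263 CPM with TL1A, a 2.89-fold rise (log2 fold change 1.53, SE 0.08, edgeR adjusted p = 6.43e-06). Its relative Edem2 had 65.4 and 33.9 CPM in medium against 38.6 and 59.3 CPM with TL1A (log2 fold change -0.02, SE 0.32, adjusted p = 0.973). With RLE factors the estimate was 0.01, so no direction is given. Herpud1, which encodes HERP, a scaffold of the degradation complex, had 266 and 149.9 CPM in medium against 408 and 621 CPM with TL1A (log2 fold change 1.31, SE 0.28, adjusted p = 0.00788).

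Derl1, a channel-like protein of the same complex, rose from 54.0 ± 4.81 to 92.5 ± 6.30 CPM (log2 fold change 0.78, SE 0.12). Derl2, with 4 rows, had 3 and 4 reads in medium against 11 and 11 with TL1A, too few for a call (log2 fold change 1.83, SE 0.64, adjusted p = 0.0543). Syvn1 and Sel1l encode the ubiquitin ligase HRD1 and its partner, the core of the complex. Syvn1 had 119 and 118 reads in medium against 74 and 81 with TL1A, in 1 of 2 rows (log2 fold change -0.40, SE 0.22, adjusted p = 0.179). It was the only tested member with an ERSE in its promoter that did not pass as higher. Sel1l had 16 and 6 reads in medium against 9 and 9 with TL1A, also in 1 of 2 rows. Reads shared between rows went uncounted, so these reads do not stand for the levels of Syvn1 and Sel1l.

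Read against the promoter matches above, 7 of the 8 genes with ERSE could be tested, and 6 of these rose while Syvn1 did not pass. Their median log2 fold change was 1.71, against 0.93 over the 28 tested members with a promoter but no ERSE, of which 20 rose. Of the genes with ERSE, Hspa5, Hsp90b1, Calr, Creld2 and Dnajc3 are luminal chaperones, a role with a median of 1.67 over its 10 tested genes. Element and role therefore overlap, and the difference between the medians was not tested. Among all 7757 tested genes with a promoter in the table, 12 held ERSE (0.155%). The 5 that are not members were Alg12 and Derl3, which rose by 0.83 (SE 0.25) and 2.87 (SE 0.64), Tdrd9 and Zfp57, which fell by 2.14 (SE 0.30) and 1.57 (SE 0.19), and Ero1b, which did not pass (log2 fold change 0.22, SE 0.22). The call of Alg12 was lost without medium replicate 1, medium replicate 2 or TL1A replicate 1 (adjusted p = 0.0995, 0.0707 and 0.159), with the replicate block (0.0611) and with DESeq2 (0.122). Derl3 reached the low-count filter only through the TL1A libraries, so it could be tested only as higher. Its call, with 3 and 2 reads in medium against 17 and 16 with TL1A, was lost without either TL1A library (adjusted p = 0.0804 without replicate 1 and 0.0568 without replicate 2), without medium replicate 2 (0.0776) and with DESeq2 (0.0548). Manf, Hyou1, Sec61a1, Sec11c, Ssr2, Spcs3, Atf6 and Derl1 are not in these promoter counts.

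Several members shared an uneven spread between the libraries of a group. Medium replicate 1 exceeded medium replicate 2 by 2.35-fold for Rpn1, 1.93-fold for Edem2, 1.78-fold for Herpud1 and 1.73-fold for Spcs2. For the same genes TL1A replicate 2 exceeded TL1A replicate 1 by 1.77-fold, 1.54-fold, 1.52-fold and 1.497-fold. Calr, Manf and P4hb showed the same order with smaller ratios (1.45, 1.49 and 1.46 in medium, 1.26, 1.32 and 1.31 with TL1A). Of 6698 tested genes with a mean of at least 100 reads, 130 (1.94%) differed by over 0.5 on the log2 scale in this order in both groups, against 5, 9 and 2 in the other 3 combinations. Of the 38 members measured at that depth, 4 were among the 130. The rise of Calr, Manf, P4hb and Herpud1 passed in each of the 13 alternative analyses, including those that left out each library in turn, whereas the calls of Rpn1 and Spcs2 depended on the libraries used, as stated above. Edem2 passed in 0 of the 13, with estimates from -0.386 to 0.528 when 1 library was left out. The source of this shared order was not tested.

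**Figure D4:**
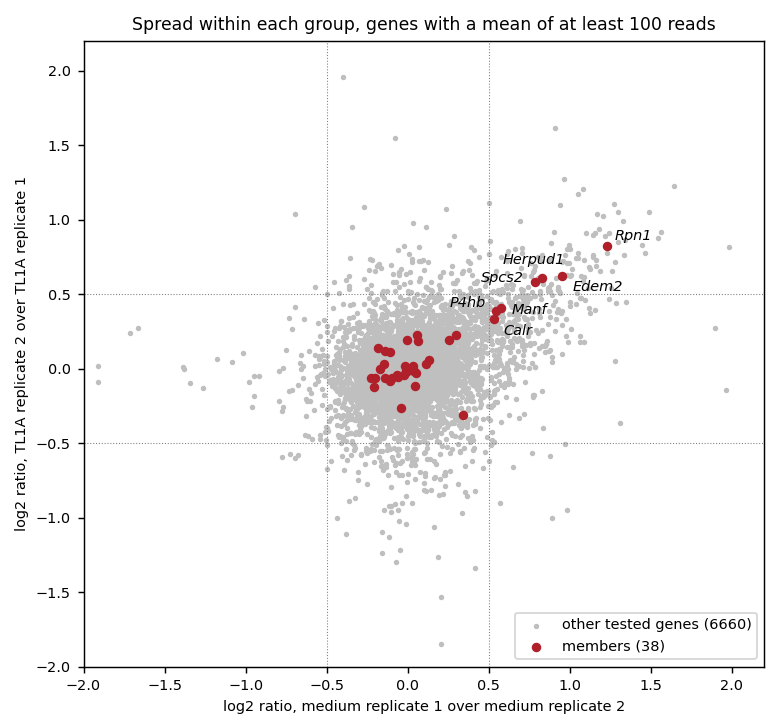
Log2 ratio of the libraries of each group, medium replicate 1 over 2 (horizontal) and TL1A replicate 2 over 1 (vertical), for 6698 genes, of which 12 lie beyond the axes. Dotted lines mark a difference of 0.5. Rpn1, Edem2, Herpud1 and Spcs2 lie beyond both lines at the upper right, with P4hb, Manf and Calr below them.

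The rest of the secretory pathway was followed in 14 further lists of 172 genes outside the 49, of which 139 could be tested. Of these, 64 rose (46.0%, against 20.6% of all tested genes), 9 fell (against 21.7%) and 66 did not pass, with a median log2 fold change of 0.33. A rise of at least 2-fold was found for 7 of the 139, against 8.77% of all tested genes. Whether these lists differ from the 49 genes was not tested. These lists too were chosen with earlier results of these data known. The genes named in what follows are, unless stated, the 3 of highest mean level in their list. Some small rises among them were lost when 1 library was left out: without TL1A replicate 1 those of Srp14 (adjusted p = 0.0701), Dpm2 (0.0943), Man1b1 (0.152), Lman2 (0.0852), Copz1 (0.0635), Tmed10 (0.102) and Get1 (0.114), and without TL1A replicate 2 that of Selenof (0.0606). Without medium replicate 1 those of Dpm2 (0.0545), Tmed10 (0.0797) and Get1 (0.174) were lost, without medium replicate 2 that of Man1b1 (0.104), and without TL1A replicate 2 also those of Man1b1 (0.108), Copz1 (0.121), Tmed10 (0.0775) and Get1 (0.175). With the replicate number as a block the calls of Copz1 (0.0718), Man1b1 (0.0797), Tmed10 (0.0633) and Get1 (0.0923) were lost. With upper quartile factors, another scaling, those of Srp14 (0.0586), Copz1 (0.0937), Man1b1 (0.0792), Tmed10 (0.0916) and Get1 (0.106) were lost, and Get1 was also lost with no low-count filter (0.0506). Eif2ak2 passed without TL1A replicate 1 and Sdf2 without medium replicate 2 (adjusted p = 0.00641 and 0.0446).

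Targeting genes moved by small amounts in 1 direction. In the signal recognition particle, its receptor and the TRAM proteins, 7 of 10 tested genes rose and none fell, with Srp14 at 0.31 (SE 0.08), Srp72 at 0.39 (SE 0.07) and Tram1 at 0.62 (SE 0.09) on the log2 scale. Of the remaining oligosaccharyltransferase subunits 4 of 7 rose, among them Ostc by 0.98 (SE 0.09), Krtcap2 by 0.63 (SE 0.08) and Dad1 by 0.40 (SE 0.08). The enzymes that build the sugar chain before its transfer gave 7 higher and 1 lower of 16 tested. Its most abundant members changed little: Dpm2 rose by 0.33 (SE 0.08), while Dpm1 (-0.12, SE 0.08) and Alg5 (0.10, SE 0.08) did not pass. In the glycan trimming and lectin cycle, 4 of 8 rose, with Uggt1, the folding sensor that sends glycoproteins back to calreticulin, rising by 0.98 (SE 0.09), Man1b1 by 0.29 (SE 0.09) and Lman2 by 0.40 (SE 0.09).

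Of 14 tested genes among other oxidoreductases and proline isomerases, 3 rose (21.4%, against 20.6% of all tested genes), 1 fell and 10 did not pass, and their median was 0.10. The membrane-bound Tmx1 (0.05, SE 0.07) and Tmx3 (0.13, SE 0.07) did not pass, whereas the proline isomerase gene Ppib rose by 0.74 (SE 0.08). Among other cochaperones and exchange factors, 4 of 12 rose (33.3%, against 20.6% of all tested genes) and 2 fell (against 21.7% of all tested genes). Dnajc10, which encodes the disulfide reductase ERdj5, had 945.1 ± 31.1 CPM in medium against 543 ± 40.7 CPM with TL1A and fell by 0.80 (SE 0.07) on the log2 scale. Dnajc14 (0.04, SE 0.07) and Sdf2 (0.19, SE 0.07), the relative of Sdf2l1, did not pass.

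The list of further degradation genes gave 9 higher and none lower of 17 tested. Selenof was placed in that list, and whether it acts in degradation was not examined here. Derl3, which could be tested only as higher, is among the 9. Selenos, a membrane selenoprotein that recruits the ATPase p97, rose from 333 ± 30.4 to 714 ± 0.0726 CPM (log2 fold change 1.10, SE 0.08), and Selenof and Faf2 rose by 0.39 (SE 0.08) and 0.53 (SE 0.07). In the PERK and eIF2 alpha branch, 6 of 12 rose and none fell. Nupr1, a stress-induced chromatin protein gene, rose from 142 ± 8.99 to 960.4 ± 32.2 CPM (log2 fold change 2.76, SE 0.08). Eif2s1, the gene of eIF2 alpha itself, rose by 0.58 (SE 0.07), and the kinase gene Eif2ak2 did not pass (-0.39, SE 0.20). Of 7 tested genes of the ATF6 and CREB3 family and its proteases 0 passed, with estimates from -0.32 to 1.14. Over all tested genes 20.6% rose and 21.7% fell. The most abundant of the 7 were Creb3 (0.14, SE 0.08), Mbtps2 (-0.32, SE 0.21) and Atf6b (0.29, SE 0.15). Some of the others had few reads, so the lack of a call does not show a lack of change.

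Coat genes carry traffic between ER and Golgi. Of 11 tested genes of the COPI coat and retrieval receptors 9 rose and none fell, with log2 fold changes from -0.09 to 1.25 over the tested genes, including Copa by 0.56 (SE 0.06), Copb1 by 0.36 (SE 0.06) and Copz1 by 0.25 (SE 0.07). Of 13 tested COPII genes 8 rose and 2 fell, over a range from -1.53 to 1.71, with Sar1a at 0.66 (SE 0.08), Tmed10 at 0.28 (SE 0.08) and Sec13 at 0.64 (SE 0.07). In the list of ER calcium pumps and channels 2 of 7 rose (28.6%) and 2 fell, shares near those over all tested genes. Tmco1 (0.09, SE 0.08) and Itpr1 (0.17, SE 0.09) did not pass, and Stim1, the calcium sensor of the ER, fell by 1.01 (SE 0.10). Of 4 tested genes for insertion of tail-anchored proteins 1 rose (25%, near the 20.6% over all tested genes): Get1 rose by 0.31 (SE 0.10) and Sgta (0.07, SE 0.07) and Get3 (-0.01, SE 0.09) did not pass. Only 1 of 6 ER-phagy receptor genes was tested: Calcoco1 fell by 0.73 (SE 0.08), and the others had too few reads. Each of the others has several rows, and reads shared between rows went uncounted. Their few reads therefore do not measure their level.

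**Figure D5:**
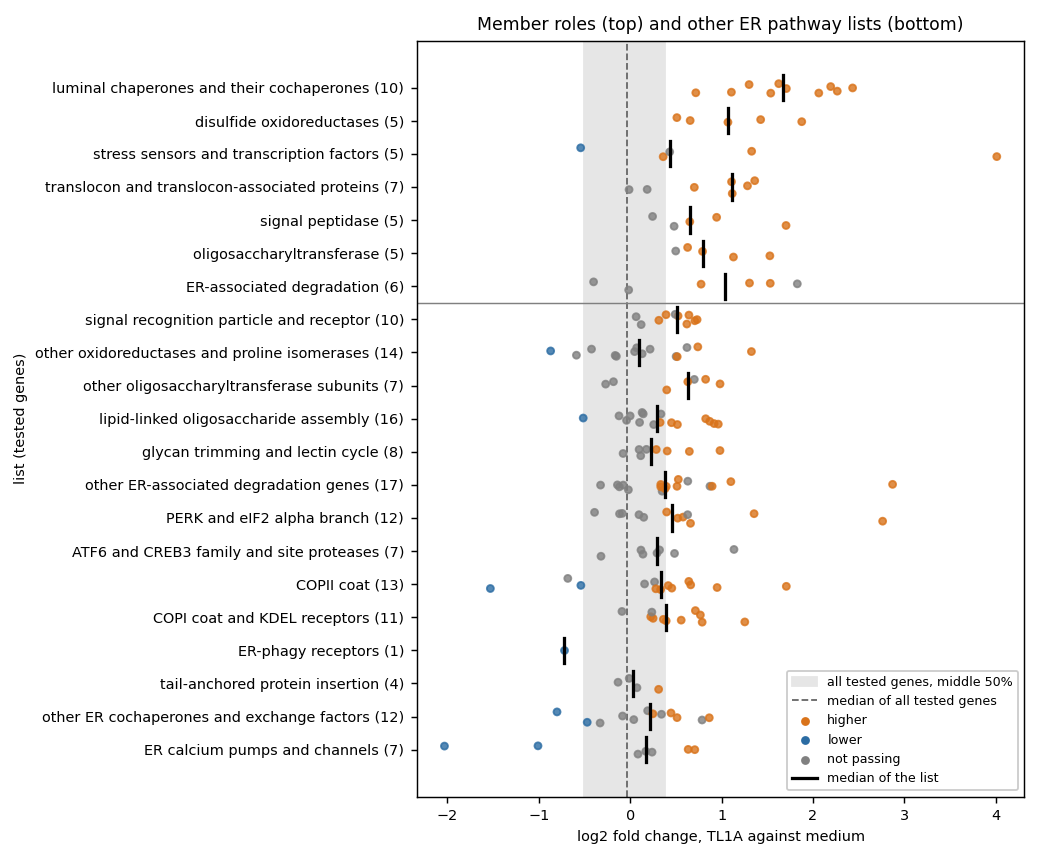
Log2 fold change, TL1A against medium, of each tested gene by member role (above the line) and by further ER list (below it), with the number tested in brackets and the list median as a black bar. The dashed line is the median of all tested genes (-0.03) and the grey band their middle 50%. The median of the luminal chaperones is 1.67, and those of the further lists with over 1 tested gene lie between 0.03 and 0.63.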

How the data were processed

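The authors deposited unnormalized whole-number counts, 1 row per RefSeq transcript, per the file headers. Per the labels, a SMARTer kit for low RNA input gave the cDNA. Per the submitters' processing notes, CASAVA, STAR and HTSeq were used with build mm9; for versions, strand setting and annotation the sources used here give nothing. The authors counted per transcript, so reads shared between rows were ambiguous (33.7% to 34% of assigned plus ambiguous reads). Of 33535 rows, 33154 matched a symbol of the GRCm38.p6 RefSeq table, used for names and promoter sequences only, and rows were summed per gene. The 5 summary rows, 69.9% to 71.3% of a column, were left out. Of the 49 members, 11 had several rows, none with 2 rows testable, so unequal change among rows could not be tested.

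edgeR 4.0.16 in R 4.3.3 was used (filterByExpr with a minimum count of 10, TMM, glmQLFit and glmQLFTest, group only, two-sided, Benjamini-Hochberg adjustment over 9852 genes). An SE is the log2 fold change divided by the square root of F. Alternatives used DESeq2 1.42.0, limma 3.58.1, other scalings and filters, a replicate block, single rows and each library left out. The libraries of a group differed beyond sampling noise (chi-square per degree of freedom 11.5 and 7.50). In simulated counts for this comparison, 200 of 9852 genes were changed. Of those changed by 0.5, 1, 2 and 3 on the log2 scale, 18%, 64.6%, 98% and 96% were recovered. In the real data 20.6% of tested genes passed as higher and 21.7% as lower, so these recovery shares need not hold there.

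The members and lists were chosen with earlier results of these data known. Named genes are all members, the 3 most abundant tested genes of each further list, and Il23r, Il7r and Tnfrsf25 as a check of the labels; some marker genes are not reported here. Intervals and limits from a count of 0 cover counting error only. Protein sequences were not used here.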

Additional observations from a re-analysis of the deposited data

How the results depend on the processing

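Of the 34 member calls, 31 held in each of up to 13 alternatives in which the gene was tested, and Hspa5, Ero1a and Ern1 did not. With 1 library left out, 31 to 34 members were higher and 1 lower, 1596 to 1956 of all tested genes were higher and 1597 to 1822 lower, and 48 to 59 genes of the further lists were higher and 6 to 8 lower. The members' median log2 fold change was then 1.04 to 1.13, and 1.05 with upper quartile factors. Without scaling factors the summed level was 12678 CPM in medium and 22887 CPM with TL1A. In the 200 bases before the start, CCACG was in 23 of 41 promoters (56.1%, against 26.9% of all genes).

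Estimates near 0 changed sign, and the cause was not tested. Sec62 gave 0.0116 with RLE factors and 0.0116 with DESeq2, and -0.0734 to 0.0718 with 1 library left out. Edem2 gave 0.0125 with RLE factors, 0.0105 with DESeq2, 0.0428 with limma-voom and 0.0241 with the replicate block, and -0.386 to 0.528 with 1 library left out. Get3 gave 0.0136 with RLE factors and 0.0136 with DESeq2, and -0.0925 to 0.083 with 1 library left out. Tnfrsf25 gave 0.0126 with RLE factors, 0.0125 with DESeq2 and -0.192 to 0.160 with 1 library left out. Its row with the most reads alone gave 0.583 (adjusted p = 0.0246). With upper quartile factors Dnajc14 gave -0.0174 and Tmx1 -0.0098.

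By their titles, each medium library shares its number with a TL1A library, so the libraries may be pairs. The deviations of same-numbered libraries had a correlation of -0.105 over tested genes. With 2 libraries a group this cannot decide whether they are pairs. The main fit used the group only, and the replicate block was an alternative. With the replicate block 31 members were higher and 1 lower (1736 and 1806 of all tested genes), and the median was 1.11. With the numbers crossed, a fit chosen after seeing the data, 36 members were higher and 1 lower (2295 and 2439 of all tested genes), and Edem2 gave 0.0147. Retrieval signals at the carboxy ends of the proteins were not analysed here.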
